A study of Glycine max with 30 samples.

Results

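A set of 1694 genomic regions in soybean (Glycine max, cultivar Williams 82) carried histone H3 trimethylated at lysine 27 (H3K27me3) in embryos of the cotyledon stage and again in seedlings, with no H3K27me3 island kept at early or mid-maturation. They are called maturation-absent regions here, where maturation stands for early and mid-maturation only. Absent means that no island was kept in a list. They made up 8.04% of the 21081 regions obtained by merging the islands of all stages, and 12.7% of the 13289 regions found in both the cotyledon and the seedling list. Of the 1694, 607 (35.8%) held an island at late maturation and 1087 (64.2%) did not, and the 2 classes are described apart. The regions were chosen from the island calls themselves: in each of 5 island lists the 5% with the lowest ratio of ChIP to control reads were dropped, and islands of different stages sharing at least 1 bp were merged.

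H3K27me3 is laid down by Polycomb repressive complex 2 and lies over genes kept silent, among them many developmental regulators that are switched on in one phase of life and off in another. H3K4me3 marks the start of genes that are being transcribed or are ready to be. During maturation the embryo stops forming organs and stores protein and oil, and after germination a different program of leaf, root and shoot growth begins.

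Embryos were taken at 4 stages and seedlings at 8 days. Seeds measured 2.5 to 3.5 mm at the cotyledon stage and 6 to 7 mm at early maturation, weighed 200 to 250 mg at mid-maturation, and were yellow and weighed 230 to 500 mg at late maturation. Each stage had 2 replicates of H3K27me3, H3K4me3 and total H3 chromatin immunoprecipitation (30 libraries in 15 groups). All tissue other than late maturation was crosslinked for 10 minutes in 1% formaldehyde. Late maturation material was ground while frozen, and its crosslinking took 15 minutes on ice, with nuclei taken from a density gradient, so stage and protocol cannot be told apart there. The deposited lists hold 1 result per stage and mark for both replicates together. No spread between replicates could be computed, no test between stages was possible, and every difference below is a description of these lists, with 95% exact binomial (Clopper-Pearson) intervals that cover counting error only. In such tissue samples, fewer cells carrying a mark and less of the mark per cell cannot be told apart.

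The number of reads in islands, which depends on both sequencing depth and the amount of mark, differed between the lists. The cotyledon islands held 23990523 ChIP reads, those of early maturation 6837194, of mid-maturation 9978699, of late maturation 8314246 and of seedlings 10188147. Early maturation had the fewest reads and the fewest kept islands, 13448, against 14889 in the mid-maturation, 16478 in the late maturation, 18723 in the seedling and 20364 in the cotyledon list. The lowest fold over control that the authors' deposited lists gave a kept island was also highest at early maturation, 1.76, against 1.26 at late maturation, where it was lowest.

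The H3K27me3 islands in the maturation-absent regions were short and thinly covered at the stages where they were called. In the cotyledon list the median density was 117 ChIP reads per kb (quartiles 101 to 137), against 213 reads per kb (168 to 265) in the 9707 regions present at all 5 stages. In seedlings it was 91.5 reads per kb (76.9 to 114) in the maturation-absent regions, against 116 reads per kb in regions present at all 5 stages. The control density was close in both classes, with a median of 75 against 74.4 reads per kb in the cotyledon list and 81.9 against 75.9 in the seedling list. The lower ChIP density at the cotyledon stage, 0.548 times that of the regions present throughout, therefore came with a control density 1.01 times theirs.

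Relative enrichment, the ratio of ChIP to control reads of a region divided by the median ratio of the islands kept in that list, placed most of these regions below the middle of their lists. Its median was 0.72 at the cotyledon stage, 0.74 at late maturation among the 607 regions with an island there, and 0.79 in seedlings. In the regions present at all 5 stages it was 1.345, 1.128 and 1.103 at the same stages. At least the list median was reached at the cotyledon stage by 205 maturation-absent regions (12.1%), against 79.6% of regions present throughout, and in seedlings by 314 (18.5%), against 63.0%. Regions in both the cotyledon and seedling lists that lacked an island at only 1 of early and mid-maturation (1533) lay between, with a relative enrichment of 0.87 at the cotyledon stage. These values chose the regions and are given as a description.

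**Figure D1:**
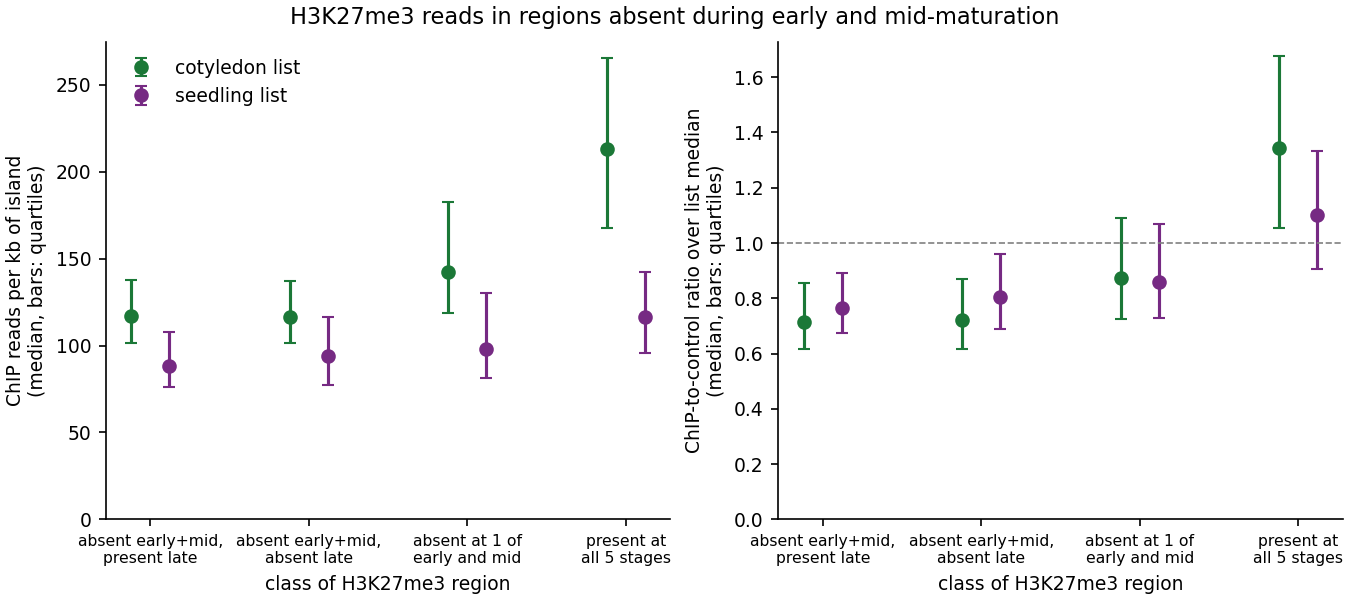
H3K27me3 ChIP reads per kb of island (left) and ChIP-to-control ratio over the list median (right) in 4 classes of region, with points at medians and bars at quartiles over regions for the cotyledon and seedling lists. Both classes of maturation-absent region sat at a cotyledon density of 117 reads per kb, against 213 reads per kb in regions present at all 5 stages.

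The classes with and without late maturation H3K27me3 were alike in read density before maturation. Both had a median of 117 reads per kb at the cotyledon stage, and in seedlings the medians were 88.0 reads per kb in regions with and 94.0 in regions without a late maturation island. The regions with a late maturation island were longer, with a median of 3600 bp against 2800 bp. All 1694 regions together had a median width of 3000 bp (quartiles 2200 to 4400 bp) and covered 5.89 Mb, against a median of 8200 bp in regions present at all 5 stages. Only 15 maturation-absent regions reached 10 kb, against 3797 of the regions present throughout.

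The share of regions without an island at early and mid-maturation was higher the more thinly they were covered at the cotyledon stage. Among regions of both the cotyledon and seedling lists with under 100 cotyledon reads per kb, 378 of 570 (66.3%) were maturation-absent. The share was 46.9% between 100 and 120 reads per kb, 23.2% between 120 and 150, and 6.56% between 150 and 200. It was 0.886% (39 of 4403) between 200 and 300 reads per kb and 0.193% (3 of 1558) above that. By summed cotyledon island length the share was 26.9% up to 1000 bp, 46.8% up to 2000 bp and 23.0% up to 4000 bp, then 6.68% up to 8000 bp and 0.603% up to 16000 bp. In these lists, dense and long H3K27me3 regions of the cotyledon stage were rarely without an island at both maturation stages. The reads and lengths come from the calls that chose the regions. A longer region also has more bases at which an island can overlap it by 1 bp. The trend is therefore given as a description only.

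**Figure D2:**
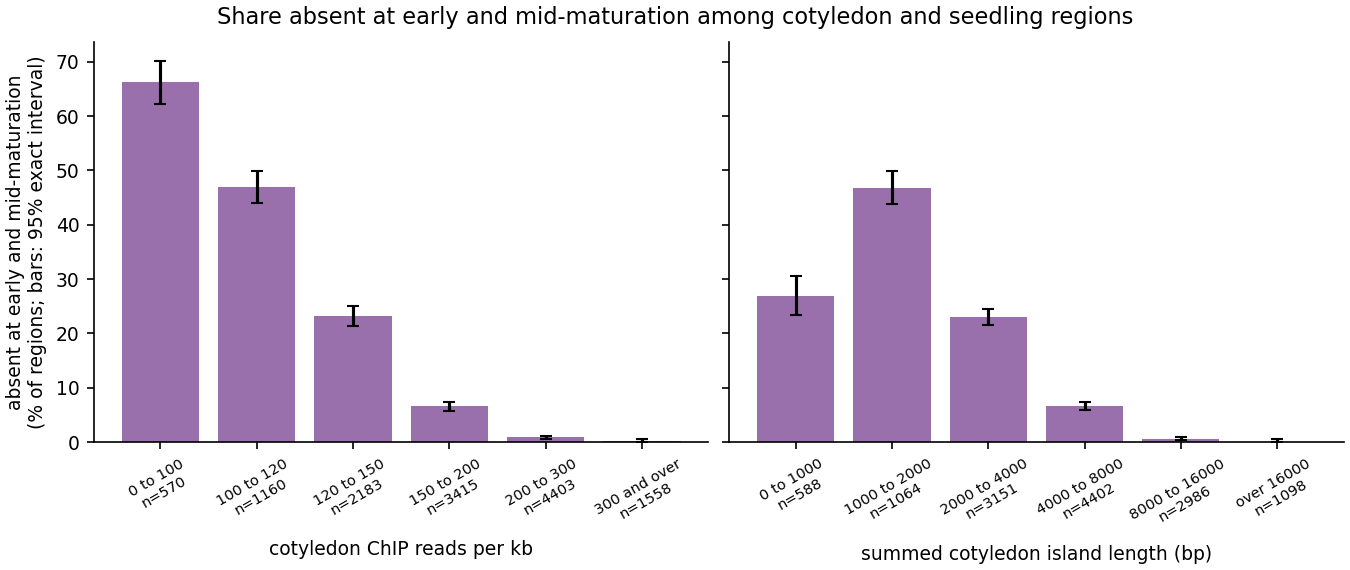
Percentage of the regions in both the cotyledon and seedling lists that had no early or mid-maturation island, by cotyledon ChIP reads per kb (left) and by summed cotyledon island length in bp (right), with 95% exact intervals and the number of regions in each bin. The share was 66.3% in the bin of lowest density and 0.193% in the bin of highest density. The bins use the island calls that chose the regions.

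Because read densities in islands present at every stage were lower at early and mid-maturation than at the cotyledon stage, the density that each region would have had there was projected from its cotyledon reads. The depth of the whole libraries was not analysed here. In the 9707 regions present at all 5 stages, the median ratio of the early maturation to the cotyledon density was 0.322, and that of mid-maturation was 0.515. With these factors the maturation-absent regions had a projected median of 37.6 reads per kb (quartiles 32.7 to 44.3) at early maturation. The islands deposited for that stage had a 5th percentile of 37.1 and a lower quartile of 47.5 reads per kb. At mid-maturation the projection gave 60.1 reads per kb (52.2 to 70.8), beside a 5th percentile of 55.6 and a lower quartile of 72.7. With factors from the 865 regions present at all 5 stages whose cotyledon density lay within the quartiles of the maturation-absent regions, 0.369 and 0.586, the projected medians were 43.0 and 68.3 reads per kb. These 865 regions themselves had a median of 45.5 reads per kb at early and 72 at mid-maturation, close to the lower quartiles, and were all regions with an island there. The projection thus placed a typical maturation-absent region between the 5th percentile and the lower quartile of the called islands at both stages.

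With the factors of all 9707 regions, the projection fell below the 5th percentile of the early maturation list for 819 regions (48.3%) and below that of mid-maturation for 624 (36.8%). With those of the regions of like cotyledon density, tried after the data were seen, it did so for 405 (23.9%) and 249 (14.7%). These percentiles are not calling limits, since the 5% drop went by the ratio to control and not by density. A loss of the mark and a level under the calling limit cannot be told apart, for regions projected below or above them. By the first factors the projection reached the lower quartile of both lists in 289 regions and by the second in 573. The median of both lists was reached by 62 regions (3.66%) with the first factors, of which 27 had and 35 lacked a late maturation island, and by 149 with the second.

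**Figure D3:**
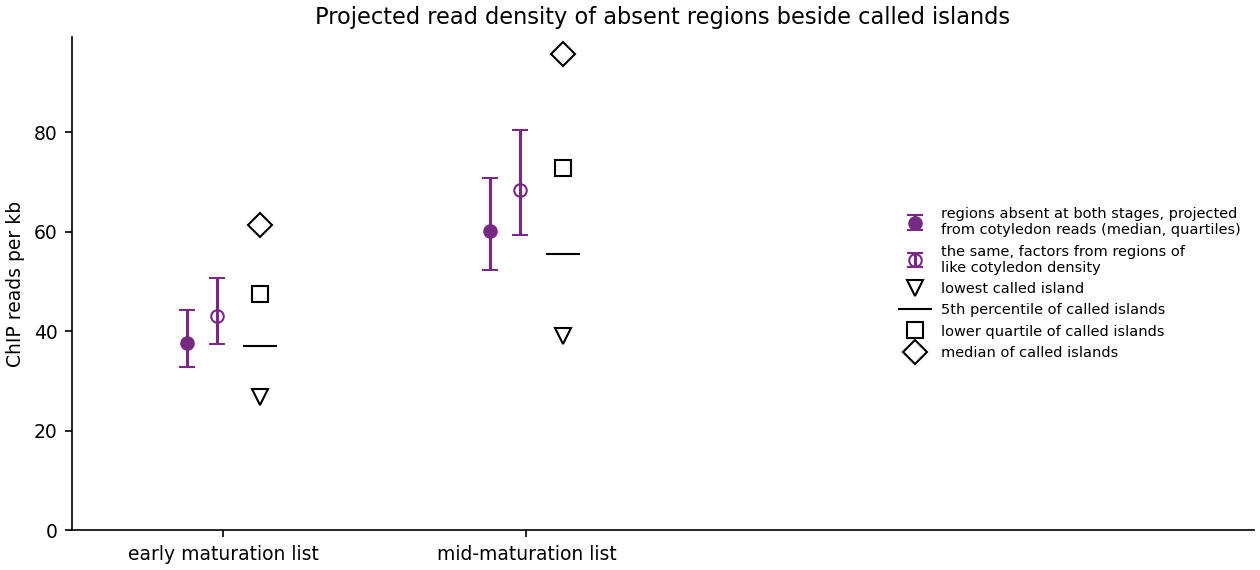
Projected ChIP reads per kb of the 1694 maturation-absent regions at early and mid-maturation (purple, median and quartiles, filled with factors from all regions present throughout and open with factors from those of like cotyledon density), beside the lowest value, 5th percentile, lower quartile and median of the islands in the same deposited list (black symbols). The medians of 37.6 and 43.0 reads per kb at early and 60.1 and 68.3 at mid-maturation lay between the 5th percentiles of 37.1 and 55.6 and the lower quartiles of 47.5 and 72.7.

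The 62 regions projected to the list medians, a subset defined after the data were seen, had a median of 212 ChIP and 84.0 control reads per kb at the cotyledon stage and 133 ChIP reads per kb in seedlings. Their relative enrichment was 1.16 at the cotyledon stage and 0.85 in seedlings, and their median width was 2000 bp. In 13 of them an island had been dropped at early or mid-maturation. A second, differently defined subset of 70 regions (4.13%) reached the list median of relative enrichment at both the cotyledon stage and in seedlings, 20 with and 50 without a late maturation island, and shared 21 regions with the first.

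Equal list lengths changed the count. When every list was cut to its 13448 islands of highest ratio, 348 regions were maturation-absent, 82 with and 266 without a late maturation island, which was 3.83% of the 9097 regions then in both the cotyledon and seedling lists. The opposite pattern was H3K27me3 at early and mid-maturation and at neither the cotyledon stage nor in seedlings. It was found in 20 of 21081 regions with the lists at full length and in 478 of 16654 with equal lengths. The maturation-absent regions thus outnumbered the opposite pattern at full length and were outnumbered by it in the cut lists. The cut also raised the lowest ratio kept in the longer lists, so length and threshold changed together.

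The individual regions with the highest enrichment, taken as the geometric mean over the cotyledon and seedling lists, are described next. They were picked by these same values, and not all of their values lay above the list median. Coordinates are those of the deposited lists, whose genome build is not given in the sources used here, and genes and bases under the regions were not analysed here. Among regions with a late maturation island the first was 3600 bp on chromosome 16 (34460801 to 34464400), with a relative enrichment of 2.40 at the cotyledon stage, 1.89 at late maturation and 1.49 in seedlings. It had no H3K4me3 peak at any stage.

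The second, 6600 bp on chromosome 5 (38494801 to 38501400), held 1767 ChIP and 497 control reads at the cotyledon stage and 553 ChIP and 226 control reads in seedlings. Its relative enrichment was 1.65 at the cotyledon stage, 0.67 at late maturation and 1.75 in seedlings. From its cotyledon density of 268 reads per kb, 86.3 reads per kb were projected at early and 138 at mid-maturation, above the list medians of 61.4 and 95.7. Its H3K4me3 ranked in the other direction. The top peak stood at the 30.7th percentile of its list by score at the cotyledon stage, in the early and mid-maturation lists at the 98.4th and 98.6th, in the late maturation list at the 16.0th and in the seedling list at the 44.2nd. H3K4me3 at this place thus ranked highest within its list at the stages at which H3K27me3 was not called.

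The other 3 of the leading 5 with a late maturation island lay on chromosome 4 (39730201 to 39732800), on chromosome 1 (40194801 to 40197400) and on chromosome 13 (6744601 to 6749000). Their relative enrichment was 1.14, 1.57 and 2.37 at the cotyledon stage and 2.00, 1.29 and 0.83 in seedlings. At late maturation it was 0.56, 0.89 and 0.75, below the list median in each. Their H3K4me3 peaks stayed at or below the 46.6th percentile in every list.

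Among regions without a late maturation island the first was 800 bp on chromosome 13 (22375201 to 22376000), with 222 ChIP and 39 control reads at the cotyledon stage and a relative enrichment of 2.64 there and 1.99 in seedlings. Its H3K4me3 percentile lay between 28.0 and 42.2 at all stages. The second, on chromosome 14 (44886801 to 44890400), had a relative enrichment of 1.78 at the cotyledon stage and 1.92 in seedlings. Its H3K4me3 percentile was 81.0 at the cotyledon stage, 90.7 at early, 76.4 at mid- and 83.3 at late maturation, and 56.3 in seedlings.

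The third, 3800 bp on chromosome 3 (39445401 to 39449200) had 262 cotyledon and 320 seedling H3K27me3 reads per kb, a relative enrichment of 1.73 and 1.83 at these stages, and an H3K4me3 percentile of 52.7 at the cotyledon stage, 95.2 at early, 96.8 at mid- and 97.2 at late maturation, and 76.2 in seedlings. The fifth, 1600 bp on chromosome 13 (36025801 to 36027400) had a relative enrichment of 1.56 at the cotyledon stage and 1.65 in seedlings. Its H3K4me3 percentile was 66.9 at the cotyledon stage, 94.0 at early, 96.0 at mid- and 99.0 at late maturation, and 47.9 in seedlings. In both regions H3K4me3 ranked highest at the 3 maturation stages, which are those without an H3K27me3 island. The fourth, on chromosome 12 (37303001 to 37305000), reached 1.30 at the cotyledon stage and 2.05 in seedlings and had no H3K4me3 peak at any stage.

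**Figure D4:**
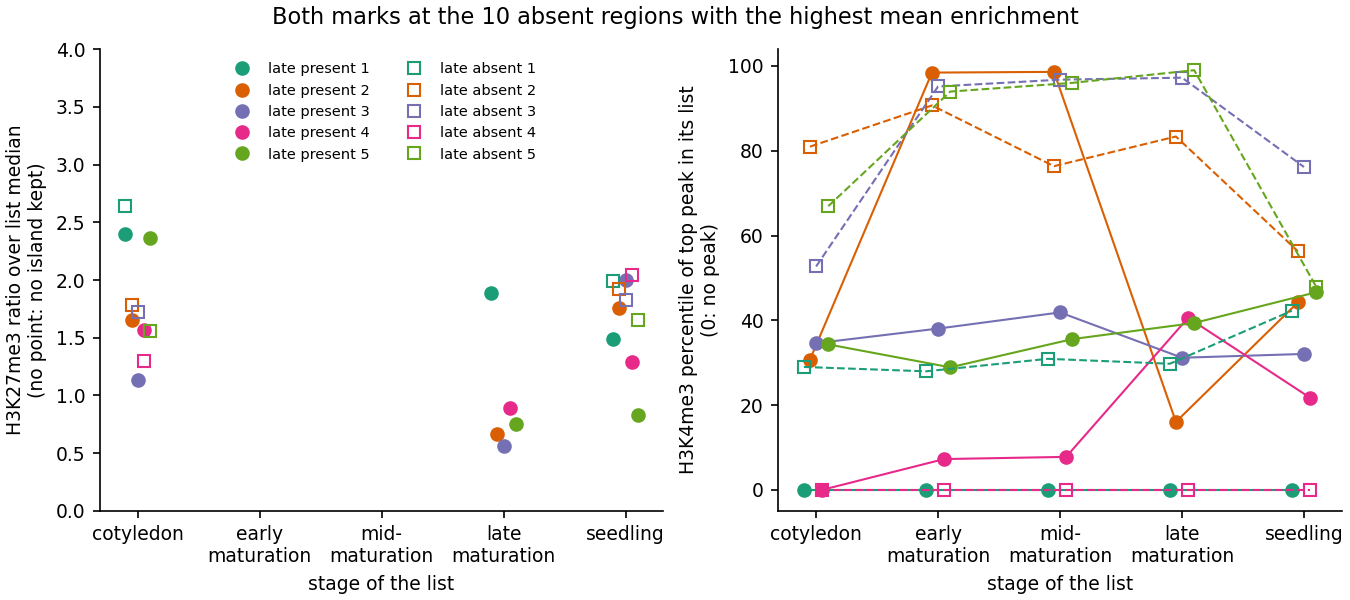
H3K27me3 ChIP-to-control ratio over the list median (left) and percentile of the top H3K4me3 peak within its list, with 0 for no peak (right), at each stage for the 10 maturation-absent regions with the highest mean enrichment (filled, with a late maturation island, and open, without one, numbered by rank). At 3 of the 10 regions the H3K4me3 percentile was above 90 at both early and mid-maturation. The 10 were picked by H3K27me3 enrichment and no share over all regions is given, so this count describes these regions only.

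The widest regions were of another kind. The region of 30600 bp on chromosome 15 (19611001 to 19641600) held 34277 ChIP and 25577 control reads at the cotyledon stage, and 21688 ChIP and 27064 control reads in seedlings. Its density of 1120 ChIP reads per kb was the highest of all 1694 regions, while its relative enrichment was 0.62 at the cotyledon stage and 0.57 in seedlings, and islands had been dropped there at early and mid-maturation. Its H3K27me3 call thus rests on a place where the control was dense as well. The next widest, 15200 bp on chromosome 16 (35084801 to 35100000), had a relative enrichment of 0.85 at the cotyledon stage and 0.59 in seedlings. The widest without a late maturation island were both 13800 bp, on chromosome 1 (49321601 to 49335400) and on chromosome 11 (8200001 to 8213800), with cotyledon values of 0.90 and 0.71.

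Some regions owed their class to the threshold itself. The lowest kept cotyledon island among them, on chromosome 10 (47318001 to 47323000), had a ratio of 1.0902, where the highest dropped ratio was 1.0891. The lowest kept seedling island, on chromosome 9 (5109801 to 5114400), had 0.7842, where the highest dropped ratio was 0.7838, and the lowest kept late maturation island, on chromosome 2 (51252401 to 51256800), had 0.6646, where it was 0.6629. On the other side, the maturation-absent region on chromosome 12 (8623201 to 8628800) had a dropped early maturation island with a ratio of 0.5771, and one on chromosome 7 (20605001 to 20609200) a dropped mid-maturation island at 1.0772. The closest regions kept out were on chromosome 15 (6108801 to 6113600), by an early maturation ratio of 0.5780, and on chromosome 6 (39465801 to 39471400), by a mid-maturation ratio of 1.0774. Dropped islands overlapped 130 maturation-absent regions (7.67%) at early and 182 (10.7%) at mid-maturation, where 6.54% and 7.35% of all regions absent from those lists held one. At late maturation they overlapped 93 of the 1087 regions without a kept island (8.56%), where 6.37% of all absent regions held one. The late maturation share is not like the other shares. Of the 867 islands dropped there, 474 had a false discovery rate above 0.05, and no early or mid-maturation island did.

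H3K4me3, which played no part in choosing the regions, overlapped the maturation-absent regions about as often as H3K27me3 regions in general, or a little less often. A peak was present at the cotyledon stage in 570 regions (33.6%), where 35.7% of all 21081 regions had one. The share was 39.0% at early maturation, against 38.9% of all regions, and 44.2% at mid-maturation, against 44.7%. It was 32.9% at late maturation, against 35.5%, and 42.9% in seedlings, against 45.8%. At least 1 list had a peak in 891 maturation-absent regions (52.6%), against 53.4% of all regions, and all 5 lists had one in 408 (24.1%), against 27.9%. The shares at the cotyledon stage, at both earlier maturation stages and in at least 1 list had intervals that held the value of all regions. Those at late maturation (interval 30.6 to 35.2), in seedlings (40.5 to 45.3) and in all 5 lists (22.1 to 26.2) lay below it by a few percentage points.

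Regions present at all 5 stages had H3K4me3 more often, from 46.1% at the cotyledon stage to 59.9% in seedlings, but were longer. Among regions of over 2000 and up to 4000 bp, the shares of the maturation-absent regions were 29.8%, 36.4%, 41.5%, 29.7% and 38.4% from the cotyledon stage to seedlings, against 29.4%, 32.3%, 39.3%, 28.4% and 37.2% in regions present throughout. The classes differed more up to 2000 bp, other than at early maturation. Up to 2000 bp (408 maturation-absent regions and 219 present throughout), the shares were 35.8%, 39.0%, 42.9%, 32.1% and 43.4% from the cotyledon stage to seedlings, against 26.9%, 42.0%, 18.3%, 26.5% and 18.7%. Between 4000 and 8000 bp they were close at every stage, from 37.4% against 37.6% at the cotyledon stage to 47.7% against 51.4% in seedlings. Above 8000 bp only 44 maturation-absent regions were left, with a peak at mid-maturation in 61.4% (interval 45.5 to 75.6), against 71.4% of 4984. Per length, the maturation-absent regions had more peaks, with 11.5 cotyledon, 12.8 early, 14.7 mid- and 11.0 late maturation and 16.0 seedling peaks per 100 kb. All 21081 regions had 7.87, 8.32, 10.3, 7.52 and 11.3 peaks per 100 kb. Regions present at all 5 stages had 7.01, 7.43, 9.62, 6.72 and 10.5 peaks per 100 kb at these stages. A peak that overlapped a region by 1 bp was counted whole, which adds more per length to shorter regions. Counts per length are therefore not comparable between classes of unlike width.

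H3K4me3 was less frequent in the regions that had a late maturation H3K27me3 island than in those that lacked one. The 1087 regions without late maturation H3K27me3 had a peak in 36.6% at the cotyledon stage, 42.8% at early, 46.9% at mid- and 36.2% at late maturation and 45.0% in seedlings. The 607 regions with a late maturation island had one in 28.3%, 32.1%, 39.2%, 27.02% and 39.0%. Of all 21081 regions, 35.7%, 38.9%, 44.7%, 35.5% and 45.8% had one at these stages. The intervals of the 2 classes did not overlap at any of the 4 embryo stages and overlapped in seedlings. They cover counting error only, regions are not replicates, and the difference was not tested. Regions with a peak in all 5 lists had a late maturation H3K27me3 island in 28.2% of cases, and those with a peak in no list (803) in 38.6%, against 35.8% of all 1694.

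**Figure D5:**
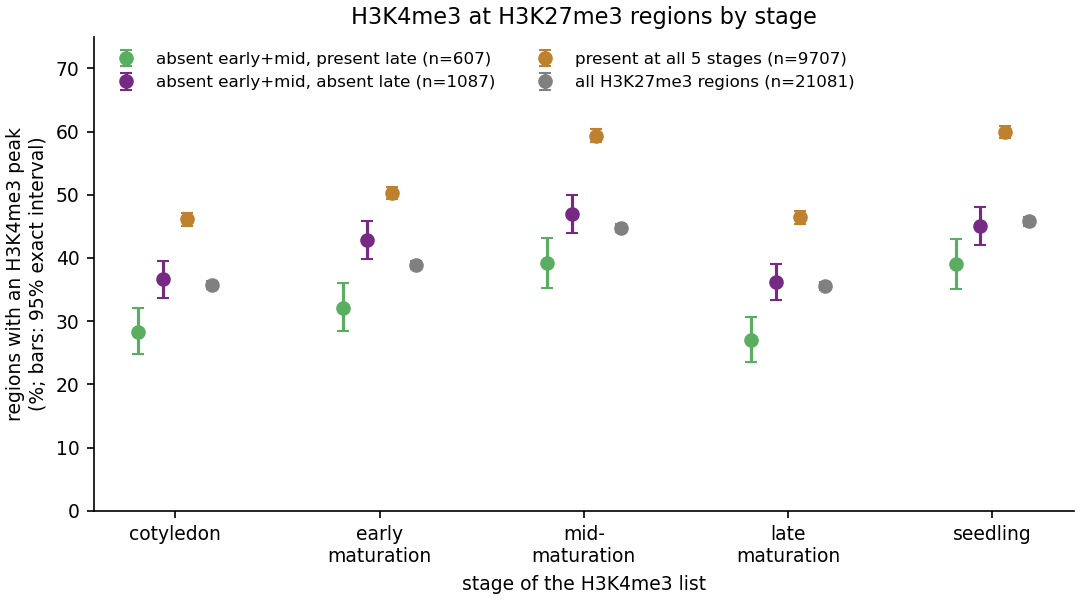
Percentage of regions with an H3K4me3 peak at each stage, with 95% exact intervals, in maturation-absent regions with (green) and without (purple) a late maturation H3K27me3 island, in regions present at all 5 stages (brown) and in all H3K27me3 regions (grey). Regions with a late maturation island lay below all H3K27me3 regions at every stage, and those without one lay above them at early maturation, at 42.8% against 38.9%.

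Changes of H3K4me3 opposite to those of H3K27me3 were rare as gains and losses of peaks. A peak at early and mid-maturation, with none at the cotyledon stage or in seedlings, was found in 30 maturation-absent regions (1.77%, interval 1.20 to 2.52), where 0.821% of all H3K27me3 regions and 0.762% of those present at all 5 stages had this pattern. Of the 30, 7 had and 23 lacked a late maturation H3K27me3 island, where 35.8% of all 1694 had one. A late maturation H3K4me3 peak was also present in 12 of the 30. So it was in 55 of the 173 regions with this pattern among all 21081, and in 18 of 74 among those present at all 5 stages. Most of the early and mid-maturation peaks in the 30 were weak, with a median percentile of 15.7 in the early and 29.2 in the mid-maturation list. The one ranked highest in both lists, named after its values were seen, lay on chromosome 13 (30823401 to 30826600), where the top peak stood at the 91.3rd percentile at early and the 92.7th at mid-maturation. Its H3K27me3 enrichment was 1.04 at the cotyledon stage and 1.13 in seedlings.

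The reverse, a peak at the cotyledon stage and in seedlings and none at early and mid-maturation, was found in 5 maturation-absent regions (0.295%), where 0.361% of all regions had it. Named because they are so few, they lay on chromosome 1 (51216201 to 51220400), chromosome 3 (45209601 to 45211800), chromosome 5 (27292801 to 27296400), chromosome 10 (47810201 to 47811800) and chromosome 12 (4288601 to 4291800). From the cotyledon stage to early maturation 118 maturation-absent regions gained a peak and 28 lost all peaks (6.97% and 1.65%), where 4.99% and 1.75% of all regions did. From early to mid-maturation 112 (6.61%) gained and 24 (1.42%) lost one, where 7.52% and 1.72% of all regions did. At the step to late maturation 39 (2.30%) gained and 230 (13.6%) lost one, where 2.69% and 11.9% of all regions did. From there to seedlings 228 (13.5%) gained and 59 (3.48%) lost one, where 13.1% and 2.87% of all regions did.

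Where a peak was present at the cotyledon stage, early maturation, mid-maturation and in seedlings, its rank within each list was compared. The lists differ in length (44161 cotyledon, 44659 early, 47618 mid- and 41459 late maturation and 52781 seedling peaks), so a rank is not an amount of the mark. In 116 of 483 such maturation-absent regions (24.0%, interval 20.3 to 28.1) the top peak ranked higher at both early and mid-maturation than at either the cotyledon stage or in seedlings, where 13.4% of all H3K27me3 regions with these peaks did. The share was 11.1% (452 of 4062, 10.2 to 12.1) in regions present at all 5 stages and 16.2% (12.5 to 20.3) in those lacking an island at 1 of the maturation stages. With every list cut to its 41459 peaks of highest score, an alternative chosen after the data were seen, the higher rank was found in 122 of 386 maturation-absent regions (31.6%, 26.995 to 36.5), where 19% of all regions and 16.9% (15.6 to 18.1) of those present at all 5 stages had it. The opposite order, lower at both maturation stages, held in 52 maturation-absent regions (10.8%), where 14.8% of all regions had it. Within the maturation-absent regions, the higher rank was found in 94 of 346 (27.2%, 22.5 to 32.2) without and 22 of 137 (16.1%, 10.3 to 23.3) with late maturation H3K27me3, and in 14 of the 32 with peaks at these 4 stages among the 70 that reached the list median of enrichment at both stages (43.8%, 26.4 to 62.3). The median shift was small, 1.15 percentile points up in the maturation-absent regions, beside -2.55 in regions present at all 5 stages.

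By the authors' scores summed over early and mid-maturation, the leading 3 regions were those on chromosome 14 (46844201 to 46849200), chromosome 5 (38494801 to 38501400, described above) and chromosome 8 (17255801 to 17259800). The region on chromosome 14 was at the 93.2nd percentile at the cotyledon stage and at the 94.4th and 100.0th at early and mid-maturation, so it ranked high before maturation too. The region on chromosome 8 was at the 99.0th percentile at the cotyledon stage and at the 74.6th in seedlings, and had no late maturation peak. By the summed percentile the order was chromosome 5, chromosome 8 and a region on chromosome 16 (7066601 to 7074400) at the 98.1st and 97.7th percentile. H3K4me3 in seedlings alone was highest on chromosome 16 (33290601 to 33300800), chromosome 17 (1176201 to 1179000) and chromosome 5 (38997201 to 38999000), at the 53.4th, 43.9th and 42.5th percentile.

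The maturation-absent regions were spread over the genome as H3K27me3 regions were in general. Their share of all H3K27me3 regions ranged over the 20 chromosomes between 6.70% on chromosome 11 and 10.2% on chromosome 20. They lay at a median of 30.4% of the way from the nearer chromosome end to the middle, against 28.1% for regions present at all 5 stages and 29.6% for all regions. The nearest early or mid-maturation island was a median of 11400 bp away (quartiles 4400 to 28550 bp). It lay within 600 bp in 22 regions and within 10000 bp in 795 (46.9%). The nearest other maturation-absent region was a median of 123700 bp away, and within 10000 bp in 199 (11.7%). These distances are not given for other classes of region.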

How the data were processed

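H3K27me3, H3K4me3 and total H3 were profiled in 30 libraries. Per the submitters' processing notes, Bowtie 0.12.7, SAMtools 0.1.19, SICER 1.1 and MACS2 were used, in roles and with a genome build not given in the sources used here. The deposited H3K27me3 lists, with a 200 bp window and 600 bp gap in their names, give the authors' ChIP and control read counts per island with a p-value, a false discovery rate and a fold ratio over control. The deposited H3K4me3 lists give the authors' score per peak. Its meaning is not stated, so scores served as percentiles within a list, other than in the naming rule, which sums them over 2 lists. The mid-maturation lists were matched to that stage by the stage code they carry. Each list pools 2 replicates.

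From these, islands were filtered and merged, reads per kb taken over a region's islands, and peaks overlapped at 1 bp (Python 3.11.15, pandas 2.3.3, scipy 1.17.1). Merging was tested on simulated islands. A region with several islands has their reads summed. The number of tests run was 0. The lists reach base 62288266 of chromosome 18, past the last gene at base 58285519 in the RefSeq table of Glycine_max_v4.0, so that table was not used. Named regions were the 5 of highest geometric mean cotyledon and seedling enrichment and the 2 widest in each late maturation class, the 3 highest in early plus mid-maturation H3K4me3, the 3 highest with H3K4me3 in seedlings alone, and those nearest the 5% threshold. The regions and rules were chosen with earlier results of these data known.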

Additional observations from a re-analysis of the deposited data

Results flagged for a closer look

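Islands dropped with the lowest 5% of their list overlapped some of the regions called absent. At early maturation 130 maturation-absent regions (7.67%) held a dropped island, where 6.54% of all regions absent from that list did. At mid-maturation it was 182 (10.7%), where 7.35% of all absent regions did. At late maturation 93 of the 1087 regions without a kept island (8.56%) held a dropped one, where 6.37% of all absent regions did. That list was deposited with a looser limit on the false discovery rate, so its share is not directly comparable. A dropped island at either early or mid-maturation was present in 260 regions (15.3%) and at both in 52, which leaves 1434 with no early or mid-maturation island in the lists as deposited.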

How the results depend on the processing

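No paired analysis was possible because the 2 replicates of a stage were merged in every list, and leaving out a replicate was not possible for the same reason. The 1694 maturation-absent regions numbered 1434 to 1733 under 6 alternatives: no islands dropped, 10% dropped, an FDR limit of 0.05, dropped islands counted as present, a 50% overlap, and merging within 1000 bp. With equal list lengths the number was 348 (82 with and 266 without a late maturation island), and 70 reached both list medians. The cotyledon density of 117 reads per kb became 111 with no islands dropped, 122 with 10% dropped, 111 with the FDR limit and 146 with equal lengths. The seedling density of 91.5 became 88.8, 94.3, 89.1 and 117 in the same order. The share with H3K4me3 in at least 1 list, 52.6%, was 58.3% with equal lengths and 18.8% with peaks at or above each list's median score, and 51.3% to 54.6% under the other 8 alternatives. The share of all regions, 53.4%, is given for the main setting only, so the comparison with all regions was not repeated under these alternatives. Regions near the calling limit at early and mid-maturation limit what absence means, since the deposited lists hold no reads outside islands. Projection factors from regions of like cotyledon density, added after the data were seen, moved the share below the 5th percentile to 23.9% at early and 14.7% at mid-maturation, and equal H3K4me3 list lengths moved the share ranked higher at both stages to 31.6%, against 24.0% with the whole lists.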

Other observations

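A late maturation island was found in 35.8% of the maturation-absent regions (607 of 1694). Of all H3K27me3 regions, 14316 of 21081 had one. So did 1175 of the 1533 regions of the cotyledon and seedling lists that lacked an island at 1 of early and mid-maturation. The share was 96.5% in the regions with an island at every other stage (355 lacked it). The maturation-absent regions were also more thinly covered, with 117 cotyledon reads per kb against 213 in regions present at all 5 stages. Of the regions in the cotyledon and seedling lists that lacked an island at 1 maturation stage, 888 lacked it at early maturation only and 645 at mid-maturation only. H3K4me3 was also counted in the 62 regions projected to the list medians, a subset defined after the data were seen. The shares were 61.3% at the cotyledon stage (interval 48.1 to 73.4) and 61.3% at early maturation. They were 62.9% at mid- and 61.3% at late maturation, and 59.7% in seedlings. Of all H3K27me3 regions, 35.7%, 38.9%, 44.7%, 35.5% and 45.8% had a peak at these stages. Regions present at all 5 stages, of like cotyledon density (213 against 212 reads per kb), had one in 46.1%, 50.3%, 59.3%, 46.4% and 59.9%. The shares of the 62 were thus near theirs at mid-maturation and in seedlings. A peak in all 5 lists was found in 35 of the 62 (56.5%, interval 43.3 to 69.0), against 37.3% of regions present at all 5 stages and 27.9% of all regions.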
